A study of Homo sapiens with 6 samples.

Results

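The 96 most abundant autosomal long noncoding RNA (lncRNA) genes of LX2 cells were followed after knockdown of SHMT2. They were the genes annotated as lncRNA in the deposited table, outside chromosomes X and Y, with a mean of at least 5 FPKM (fragment counts divided by gene length and by the total of the library) over the 6 libraries, leaving out GAS5 and the genes named SNHG. They made up 96 of the 60623 genes in the table, which held 16837 lncRNA genes. Of the 115 lncRNA genes that reached 5 FPKM, 5 lay on X or Y and 14 were GAS5 or SNHG genes. The mean level over the 6 libraries chose the members, so a gene could also reach it through its higher group alone. LX2 is an established human hepatic stellate cell line, and SHMT2 is the mitochondrial serine hydroxymethyltransferase, which feeds one-carbon units from serine into the folate pool. All cells were grown with 2% fetal bovine serum and collected 36 h after transfection. The control group (siNC, labelled as wild type) and the group transfected with an siRNA against SHMT2 (siSHMT2) had 3 libraries each. Both groups carry an siRNA, untransfected cells were not analysed here, and all libraries come from 1 cell line. The labels do not say whether the replicates were separate cultures, so p-values measure the spread between these samples only, which may be technical.

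Long noncoding RNAs are transcribed and often spliced like messenger RNAs but are not known to code for a protein. Some stay in the nucleus, such as NEAT1, the scaffold of paraspeckles, and MALAT1, which gathers in nuclear speckles. Others act in the cytoplasm, such as NORAD, which binds Pumilio proteins through many copies of their recognition word. Many are read from the opposite strand of a coding gene or start back to back with one, and nuclear decay by the RNA exosome keeps many of them scarce.

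SHMT2 itself (chromosome 12, 57229573-57234935) had 40.8, 56.3 and 45.1 FPKM in siNC replicates 1 to 3 and 2.25, 2.10 and 2.42 FPKM in the siSHMT2 replicates, which left 4.77% of the control level (log2 difference -3.88, SE 0.132, exact two-sided permutation p = 0.1, the smallest that 3 against 3 libraries allow). Recovered read counts ranged from 14722344 to 15669139 per library. Of 12 stellate or fibroblast markers, 8 were expressed at a mean of at least 1 FPKM and 1, VIM, fell. Their summed level was 1868 to 2757 FPKM in siNC and 1448 to 1664 FPKM in siSHMT2, and ACTA2, DES, LUM and DCN, which define activated or tissue stellate cells and fibroblasts, were each under 1 FPKM on average. Summed markers of hepatocytes lay between 0.299 and 1.36 FPKM, with TTR at 0 in every library, and those of endothelial cells between 0.310 and 0.626 FPKM, with LYVE1 at 0. Macrophage markers summed to 13.6 to 19.5 FPKM, nearly all from CD14, with 5 of the 6 under 1 FPKM, and cholangiocyte markers to 1.72 to 2.94 FPKM. The part of these levels in the lncRNA values was not tested. In bulk RNA, fewer cells with a transcript and less of it per cell cannot be told apart.

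Of the 96 lncRNAs, 13 were higher and 13 lower in siSHMT2 at a limma adjusted p under 0.05, with all 96 tested among 10865 genes. The called share was 27.1% of the lncRNAs against 15.9% of all genes tested, of which 6.07% were higher and 9.85% lower. In 17 of the 96 lncRNAs 1 group mean lay under 5 FPKM, as for LINC00857 and EXOC3-AS1 in siNC and AP005121.1 and C6orf99 in siSHMT2. Such genes were members through their higher group, and they held 10 of the 26 calls. The other 79 held 16 calls (20.3%), so the called share of the 96 is a description of a set that the level threshold helped to shape. Differences are in log2(FPKM + 1), so the added 1 shrinks those of scarce transcripts. Their median was 0.06 for the lncRNAs, 55 of them above 0, and 0.02 for all genes. Among 5587 protein-coding genes with at least 5 FPKM, 17.5% were called, and among 568 other autosomal lncRNAs with 1 to 5 FPKM 12.9% were called. The siNC and siSHMT2 values did not overlap in 41 of the 96 lncRNAs, 25 higher and 16 lower, where 36.4% of all genes tested did not overlap. The ratio of group mean FPKM was at least 2 in 1 called lncRNA that rose and in 5 that fell. In log2(FPKM + 1), called differences of at least 1 were found in 1 lncRNA that rose and 3 that fell. Over the 10865 genes tested, 57 rose and 210 fell by that much, so the lean to falls was not particular to the lncRNAs. Rescaling to TPM moved the median of all genes from 0.02 to 0.11 and that of the lncRNAs to 0.17, with 16 lncRNAs called higher and 12 lower. The same rescaling turned the split over all genes from 659 higher and 1070 lower to 686 higher and 620 lower. Leaving out 1 library gave 6 to 14 lncRNAs higher and 6 to 17 lower: the lower count was 7 without siNC replicate 3, and both counts were 8 or less with any 1 siSHMT2 library left out.

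**Figure D1:**
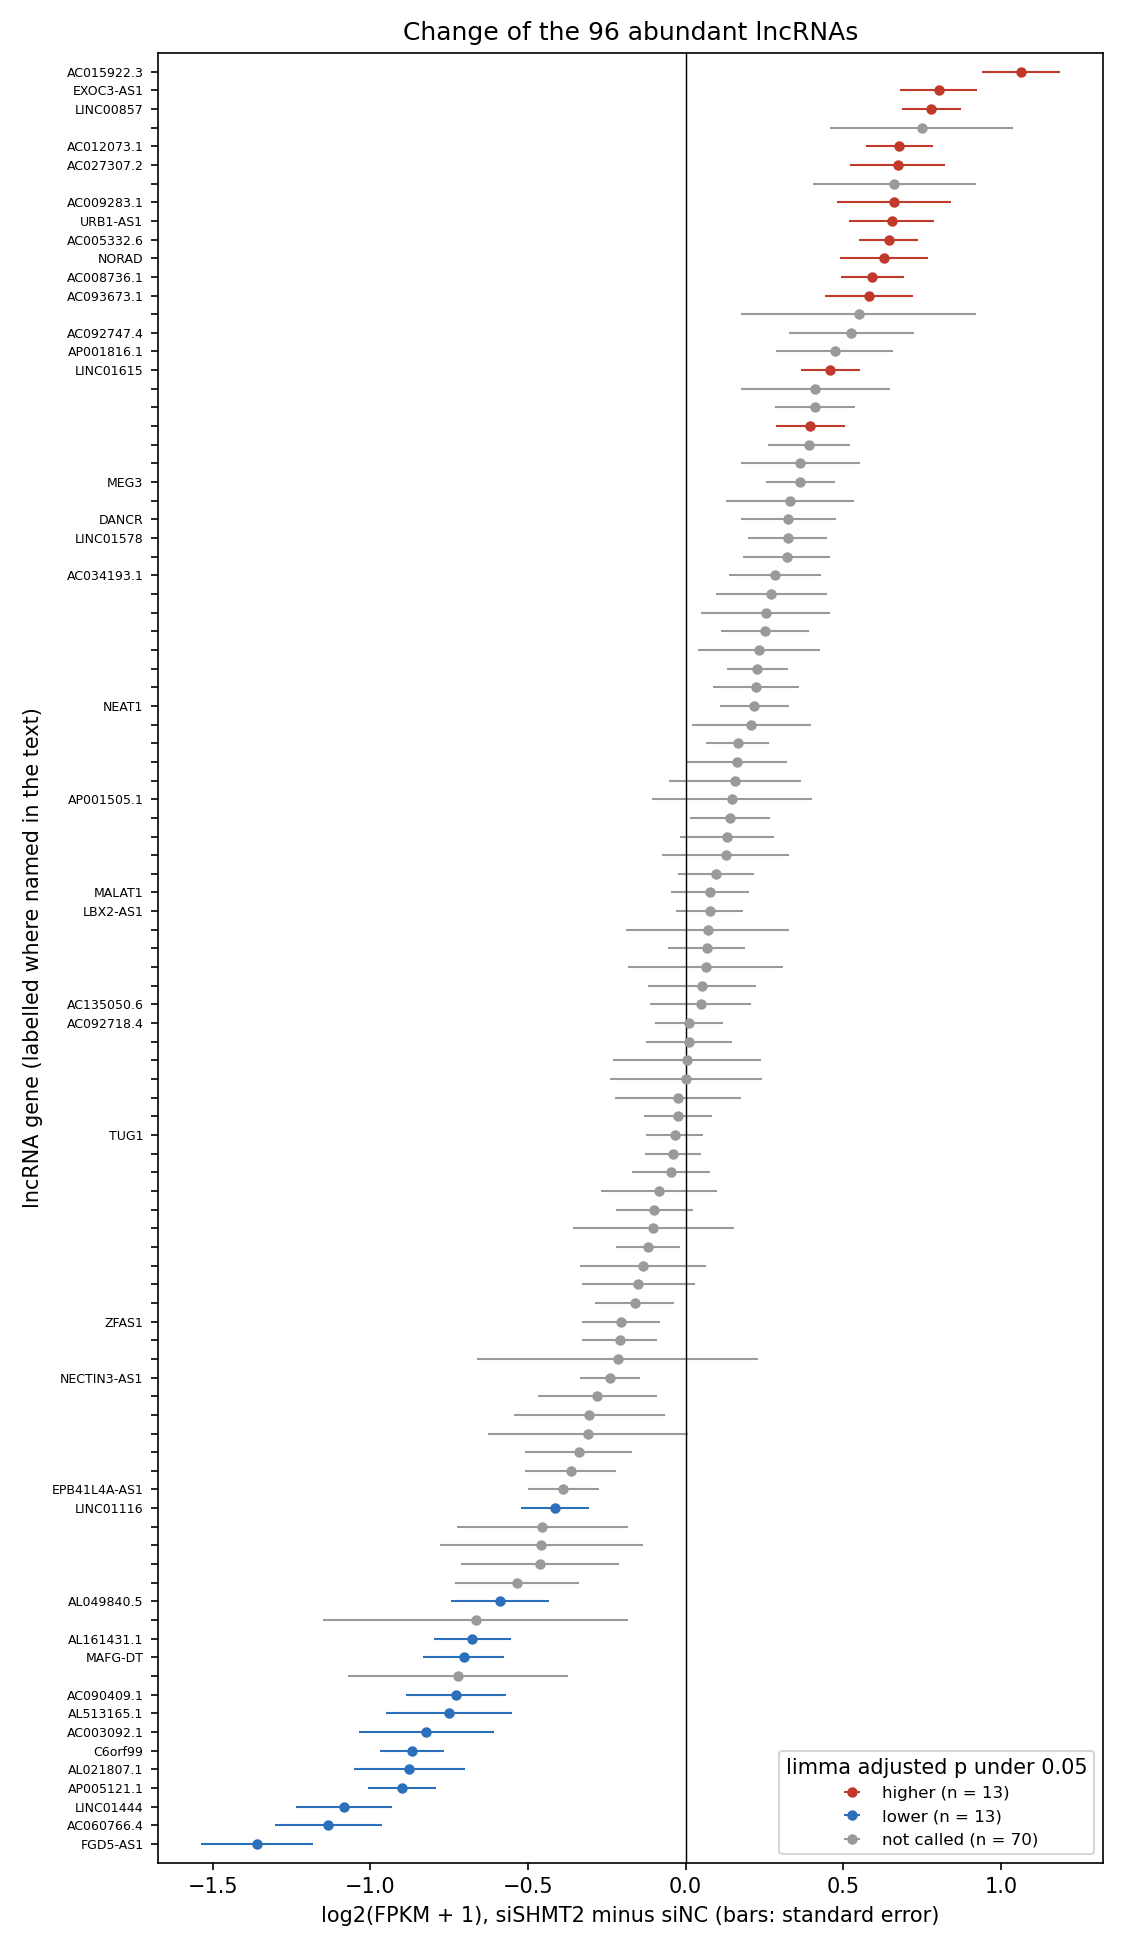
Difference in log2(FPKM + 1), siSHMT2 minus siNC, of each of the 96 lncRNAs (y axis, ordered by the difference, labelled where named in the text), with bars of 1 standard error from limma. Red and blue points are the 13 genes called higher and the 13 called lower, from FGD5-AS1 at -1.36 to AC015922.3 at 1.06, and some uncalled genes with wide bars lie as far from 0 as called ones.

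Levels ran from 5.03 to 55.7 FPKM (median 8.06), and 7 of the lncRNAs had a mean of at least 30 FPKM. The 10 with the highest means were NORAD, AC093673.1, DANCR, AL049840.5, LINC01444, NECTIN3-AS1, AC034193.1, AC092718.4, AP001505.1 and AC135050.6, and 4 of these were called: NORAD and AC093673.1 rose, AL049840.5 and LINC01444 fell. Just above the threshold stood AC092747.4 at 5.03 FPKM and LBX2-AS1 at 5.05, and just below it PDCD4-AS1 at 4.97 and AC016394.2 at 4.93. Gene lengths ran from 160 to 23224 bases, and between 16 and 6659 reads stood behind each value.

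NORAD (noncoding RNA activated by DNA damage, chromosome 20, 36045618-36051018, minus strand) was the most abundant of the lncRNAs, and a Pumilio word repeated along its length is shown here because PUM2 fell while NORAD rose. Its 5339-base transcript in GENCODE release 29 (GRCh38) held 15 matches to TGTANATA on the sense strand, neighbouring matches included. Of these 10 were TGTATATA, 4 TGTAAATA and 1 TGTACATA. The first 5 windows read, 5′ to 3′ in exon sequence, with the word in capitals:
NORAD window 1, chr20:36050187-36050206: ggcctgTGTATATAatatga
NORAD window 2, chr20:36049808-36049827: ctactgTGTATATAgttgac
NORAD window 3, chr20:36049707-36049726: acatttTGTAAATAcctttt
NORAD window 4, chr20:36049497-36049525: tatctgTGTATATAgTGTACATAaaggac
NORAD window 5, chr20:36049123-36049142: ccacttTGTAAATAtctttt

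The word was present in 14 of the 94 lncRNAs with an annotated transcript (14.9%) and in 65 of 580 other tested lncRNAs (11.2%). No other of the 94 reached 15 matches, and the next highest number was 6, in NEAT1. NORAD had 48.9, 36.7 and 45.3 FPKM in siNC and 66.7, 74.4 and 62.1 FPKM in siSHMT2. Every siSHMT2 library lay above every siNC library, and the difference was 0.63 (SE 0.14, limma adjusted p = 0.0216). NORAD was not called without siNC replicate 3 or with any 1 siSHMT2 library left out (adjusted p up to 0.0942), or with no filter on low genes, while the difference stayed between 0.51 and 0.71 with 1 library left out. PUM2, which encodes one of the Pumilio repressors that NORAD binds, had 9.30, 9.63 and 7.27 FPKM in siNC and 5.63, 5.47 and 4.06 FPKM in siSHMT2. The groups did not overlap, and PUM2 fell by 0.69 (SE 0.146, adjusted p = 0.0183). The nearest tested coding gene to NORAD, EPB41L1, an opposite-strand gene 40486 bases away that encodes a membrane-cytoskeleton linker, rose from 4.88 ± 0.214 to 11.5 ± 0.823 FPKM (SD, n = 3; difference 1.08, limma adjusted p = 0.000456).

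The largest fall was that of FGD5-AS1 (chromosome 3, 14920347-14948424, minus strand), an antisense lncRNA named for its neighbour FGD5. It had 21.6, 12.5 and 16.8 FPKM in siNC and 5.75, 6.24 and 5.55 FPKM in siSHMT2. The siSHMT2 libraries were tightly grouped below a scattered control group, and FGD5-AS1 fell by 1.36 (SE 0.177, limma adjusted p = 0.00241). AC060766.4, an unnamed gene on chromosome 17 (35403837-35404373), had 10.1, 10.2 and 6.51 FPKM against 3.95, 3.03 and 3.42. It fell by 1.13 (SE 0.17, adjusted p = 0.00436), with siNC replicate 3 nearest to the siSHMT2 values. C6orf99, now named LINC02901 (chromosome 6, 158869848-158919105), had 6.94, 7.06 and 7.57 FPKM against 3.04, 3.76 and 3.70. It fell by 0.87 (SE 0.102, adjusted p = 0.00167), with little spread in either group.

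A pair of neighbours on chromosome 18 fell together. LINC01444 (14969001-14970468, minus strand) had 44.8, 66.4 and 53.1 FPKM in siNC and 25.5, 23.5 and 26 in siSHMT2, a fall by 1.08 (SE 0.152, limma adjusted p = 0.00324). AP005121.1 (14903580-14915628, plus strand) had 6.18, 7.31 and 7.28 FPKM against 3.61, 3.16 and 2.97, a fall by 0.90 (SE 0.107, adjusted p = 0.00173). In both genes every control library was above every siSHMT2 library. LINC01443, which overlaps LINC01444 on the opposite strand, fell by 0.75 (adjusted p = 0.0369), and ANKRD30B, the nearest tested coding gene of both, fell by 0.81 (adjusted p = 0.0169). No source used here says whether counting used strand, and reads of LINC01443 and LINC01444 cannot be told apart. ANKRD30B has close paralogs with which it may share reads.

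MAFG-DT, now named MILIP, which starts back to back with the transcription factor gene MAFG, fell by 0.70 (SE 0.129, adjusted p = 0.0102, limma), from 6.24, 8.60 and 8.15 FPKM to 4.28, 3.91 and 4.67. AL161431.1, now LINC03061, had 21.9, 23.0 and 19 FPKM in siNC and 14.8, 12.4 and 11.8 in siSHMT2, and fell by 0.68 (SE 0.123, adjusted p = 0.0098). Both genes had separate groups. Without siSHMT2 replicate 3, AL161431.1 was not called (adjusted p = 0.0529). AL049840.5, which lies inside KLC1 on the same strand, had 44.9, 65.7 and 47.9 FPKM against 34.2, 32.5 and 36.2, a fall by 0.59 (SE 0.155, adjusted p = 0.0394). KLC1, a kinesin light chain gene, was not called (0.20, adjusted p = 0.355).

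The other 5 genes called lower were AL021807.1 in the histone cluster of chromosome 6 (-0.88, adjusted p = 0.0151), AC003092.1 (-0.82, adjusted p = 0.038), AL513165.1 (-0.75, adjusted p = 0.0405), AC090409.1 (-0.73, adjusted p = 0.0199) and LINC01116 (-0.41, adjusted p = 0.0384). AC003092.1 had 11.2, 22.2 and 14.7 FPKM in siNC against 8.15, 7.77 and 8.98 in siSHMT2, so its control libraries were the more scattered. These 5 and AL049840.5 were not called without siNC replicate 3 or with any 1 siSHMT2 library left out, and AL513165.1 was also not called without siNC replicate 2. Their highest adjusted p in those limma fits were 0.0568 for AL021807.1, 0.121 for AC003092.1, 0.136 for AL513165.1, 0.0864 for AC090409.1, 0.132 for LINC01116 and 0.136 for AL049840.5. None of these 6 was called with no filter on low genes, LINC01116 was also not called with TPM, read-sum scaling or voom, and AL513165.1 was not called with voom. BET1, a Golgi transport gene 18451 bases from AC003092.1, fell by 0.89 (adjusted p = 0.00215).

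The largest rise was that of AC015922.3, an unnamed gene of 690 bases on chromosome 17 (15789016-15789705, plus strand). It had 8.12, 8.60 and 6.35 FPKM in siNC and 16.2, 17.2 and 17.8 FPKM in siSHMT2, and rose by 1.06 (SE 0.122, limma adjusted p = 0.0015). The highest control value was far below the lowest siSHMT2 value. LINC00857 (chromosome 10, 80207372-80219657, plus strand) had 3.60, 3.93 and 4.28 FPKM against 7.43, 7.21 and 7.74. It rose by 0.78 (SE 0.094, adjusted p = 0.00179) with little spread in either group.

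EXOC3-AS1, which starts 15 bases from the exocyst gene EXOC3 on the opposite strand, had 3.16, 4.11 and 3.74 FPKM in siNC and 8.10, 6.38 and 6.96 FPKM in siSHMT2. It rose by 0.80 (SE 0.121, adjusted p = 0.00449, limma), with separate groups. AC012073.1, inside the adenylate cyclase gene ADCY3 on the other strand, had 4.13, 3.24 and 4.07 FPKM against 6.53, 6.64 and 6.85, a rise of 0.68 (SE 0.105, adjusted p = 0.00501). ADCY3 was not called (0.10, adjusted p = 0.624). AC005332.6 had 5.52, 5.39 and 6.03 FPKM against 8.78, 9.50 and 9.87, a rise of 0.64 (SE 0.0936, adjusted p = 0.00381). The closest tested coding gene to it, the importin gene KPNA2, moved the other way and fell by 0.59 (adjusted p = 0.0166). AC008736.1, now NUDT19-DT, had 4.33, 4.62 and 5.26 FPKM against 7.36, 8.07 and 7.46, a rise of 0.59 (SE 0.0993, adjusted p = 0.00704). No control value of these genes reached the lowest siSHMT2 value.

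AC093673.1, now FAM131B-AS2 and the second most abundant of the lncRNAs, had 31.8, 35.2 and 43.6 FPKM in siNC and 54.3, 52.0 and 59.5 in siSHMT2, a rise of 0.58 (SE 0.139, limma adjusted p = 0.0283). URB1-AS1 had 4.81, 5.90 and 5.12 FPKM against 7.36, 9.0 and 10.4, a rise of 0.65 (adjusted p = 0.0166). Also called higher were AC027307.2 (0.67, adjusted p = 0.0222), AC009283.1 (0.66, adjusted p = 0.0459) and LINC01615 (0.46, adjusted p = 0.016). Each of these 5 calls was lost in at least 1 fit that left out 1 library. Fits without 1 siSHMT2 library also called fewer of all genes tested, 6.69% to 8.04% against 15.9%. AC093673.1 was lost without siNC replicate 2 or with any 1 siSHMT2 library left out (adjusted p up to 0.117), and URB1-AS1 without siNC replicate 3 or siSHMT2 replicate 2 or 3 (up to 0.0648). AC027307.2 was lost without siSHMT2 replicate 1 or 3 (up to 0.103), and LINC01615 with any 1 siSHMT2 library left out (up to 0.0775). AC009283.1 was lost without siNC replicate 1 or 2 or with any 1 siSHMT2 library left out (up to 0.149), and also with voom, with array weights and with no variance trend. All of the 5 but LINC01615 were lost with no filter on low genes. Among the 26 called lncRNAs, 12 were called in all 6 fits that left out 1 library, and none changed direction in any of the 15 alternatives. Of these 12, AC060766.4, AP005121.1, C6orf99, MAFG-DT, AC008736.1, AC012073.1, LINC00857 and EXOC3-AS1 had 1 group mean under 5 FPKM. They were members through their higher group alone, so the level threshold helped to shape this count too.

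**Figure D2:**
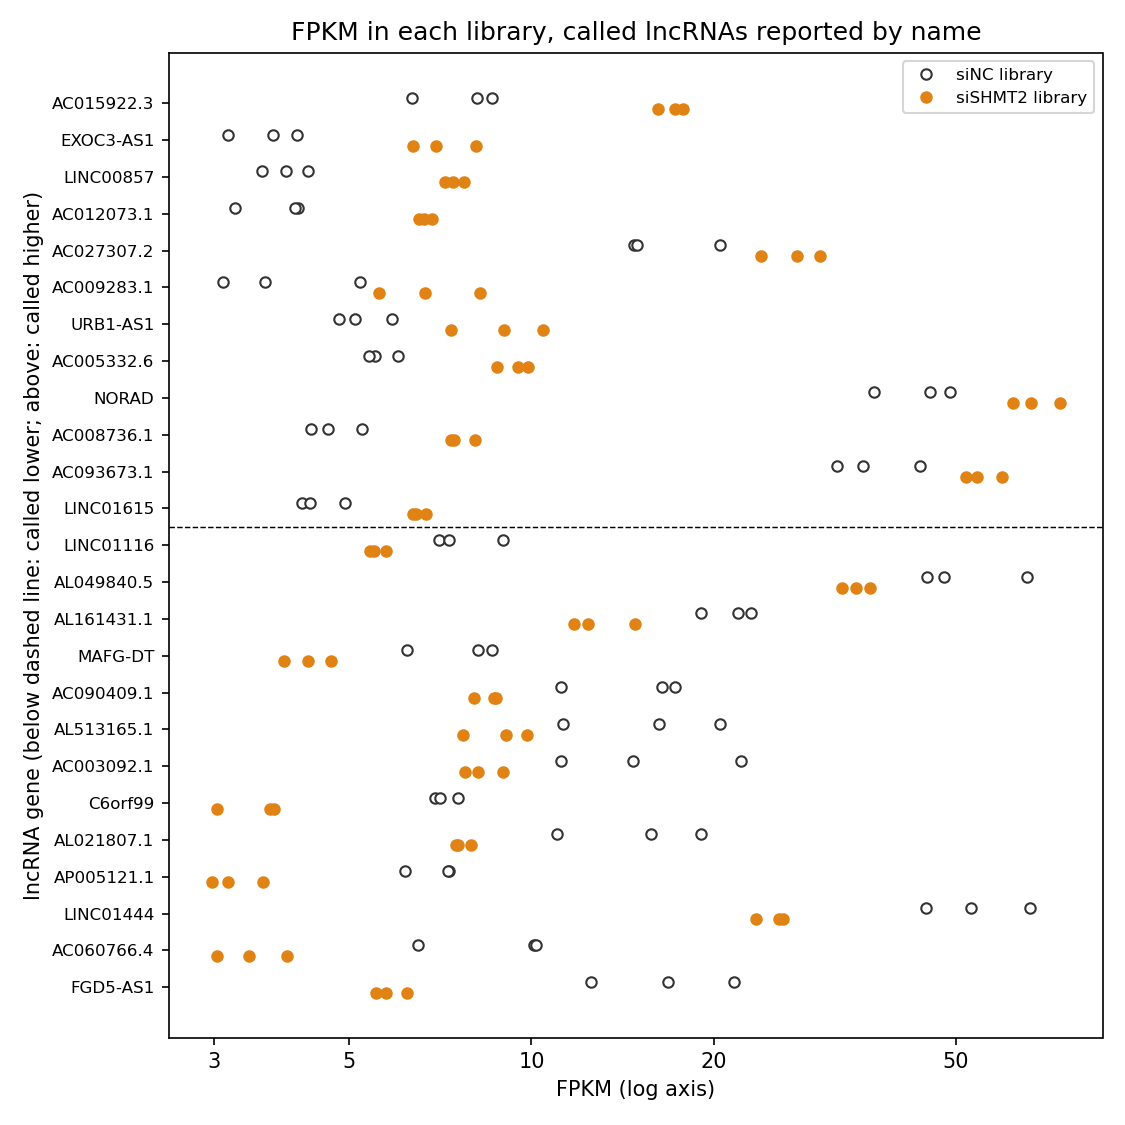
FPKM (x axis, log scale) of the called lncRNAs reported by name in each library, with open points for the 3 siNC and filled points for the 3 siSHMT2 libraries. The groups are separate in every row, as for FGD5-AS1 (12.5 to 21.6 against 5.55 to 6.24) and NORAD (36.7 to 48.9 against 62.1 to 74.4).

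Several well-known lncRNAs were not called. MALAT1 had 7.52, 5.45 and 6.79 FPKM in siNC and 6.73, 6.65 and 7.51 in siSHMT2, with overlapping groups (0.08, SE 0.123, limma adjusted p = 0.719). TUG1, which has been tied to chromatin regulation, had 6.14, 5.92 and 5.62 FPKM against 6.0, 5.45 and 5.73 (-0.04, SE 0.0889, adjusted p = 0.827). The groups of both genes overlapped. Their signs were not stable: MALAT1 was at -0.04 without siNC replicate 2, and TUG1 was at 0.05 after rescaling to TPM.

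NEAT1 had 8.47, 8.73 and 9.50 FPKM in siNC and 9.97, 12.0 and 9.69 in siSHMT2, groups that did not overlap but missed the threshold (0.22, SE 0.109, adjusted p = 0.229, limma). MEG3, the maternally expressed lncRNA of the DLK1 locus, had 5.74, 7.43 and 6.94 FPKM against 9.07, 8.47 and 9.06, also without overlap (0.36, SE 0.11, adjusted p = 0.0618). MEG3 was called with TPM, with read-sum scaling, with voom, with array weights and without siNC replicate 2. DANCR, which hosts small nucleolar RNAs, had 30.9, 44.4 and 42.6 FPKM against 50.1, 46.6 and 50.2 (0.33, SE 0.151, adjusted p = 0.195). All siSHMT2 values of DANCR lay above the controls, and it was called with TPM, with read-sum scaling and with voom.

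LINC01578, now CHASERR and known for regulating its neighbour CHD2, had 5.14, 5.88 and 4.16 FPKM in siNC and 6.05, 6.92 and 6.64 in siSHMT2 (0.32, SE 0.125, limma adjusted p = 0.125), and CHD2 was at -0.10 (adjusted p = 0.535). ZFAS1, a host of small nucleolar RNAs, had 6.27, 8.53 and 7.59 FPKM against 6.17, 5.85 and 6.89 (-0.21, SE 0.124, adjusted p = 0.313). The ZFAS1 groups overlapped, while those of LINC01578 did not. EPB41L4A-AS1, which also hosts a small nucleolar RNA, had 6.47, 7.32 and 8.46 FPKM against 5.11, 5.39 and 5.72 (-0.39, SE 0.112, adjusted p = 0.054). NECTIN3-AS1 had 40.9, 41.0 and 43.2 FPKM against 35.6, 34.8 and 35.0 (-0.24, SE 0.0955, adjusted p = 0.135). Both had separate groups with the siSHMT2 libraries lower, and EPB41L4A-AS1 was called with array weights and without siNC replicate 1. The other uncalled genes of the 10 most abundant were at 0.28 (AC034193.1), 0.01 (AC092718.4), 0.15 (AP001505.1) and 0.05 (AC135050.6), and the last 3 changed sign in at least 1 alternative.

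Calls were counted by position relative to other genes. Of the 41 lncRNAs that overlap a tested gene on either strand, 3 were called (7.32%). Of the 55 that overlap none, 23 were called (41.8%), against 15.9% of all genes tested. There were 10 calls on lncRNAs that were members through their higher group alone, and all but that of AC012073.1 lay among the 55. The part of the level threshold in this contrast was not tested. The median gene length was 899 and 967 bases and the median within-group SD of log2(FPKM + 1) was 0.211 and 0.201 in these 2 sets, and whether shared reads play a part was not tested. Without siNC replicate 1 the number called among the 41 was 6, and without siNC replicate 2 it was 5. Of 22 lncRNAs whose start lies within 1000 bases of that of an opposite-strand coding gene, 5 were called higher and 1 lower. Over all genes tested, 6.07% were called higher and 9.85% lower. Among these called lncRNAs, EXOC3-AS1, AC008736.1 and MAFG-DT were members through their higher group alone. In none of the 22 pairs were both genes called, and 8 pairs had the same sign. EXOC3 was at -0.00 (adjusted p = 0.994) beside EXOC3-AS1, MAFG at 0.02 (0.936) beside MAFG-DT, URB1 at -0.10 (0.588) beside URB1-AS1 and NUDT19 at -0.03 (0.914) beside AC008736.1 (limma adjusted p in each case). ZYX, which encodes the focal adhesion protein zyxin, was at 0.36 (0.0755) beside AC093673.1. PPP3CA, the catalytic calcineurin subunit, fell from 12.7 ± 1.85 to 2.41 ± 0.121 FPKM (SD, n = 3; -2.00, adjusted p = 0.000122), while AP001816.1, which starts 498 bases from it, was not called (0.47, adjusted p = 0.132). Over all 96 lncRNAs the nearest tested coding gene had the same sign in 52. Among the 26 called ones it was called the same way in 4 (NORAD, LINC01444, AP005121.1 and AC003092.1), the other way in 1 (AC005332.6) and not called in 21. LINC01444 and AP005121.1 share 1 such gene, ANKRD30B, and 15.9% of all genes tested were called in either direction.

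**Figure D3:**
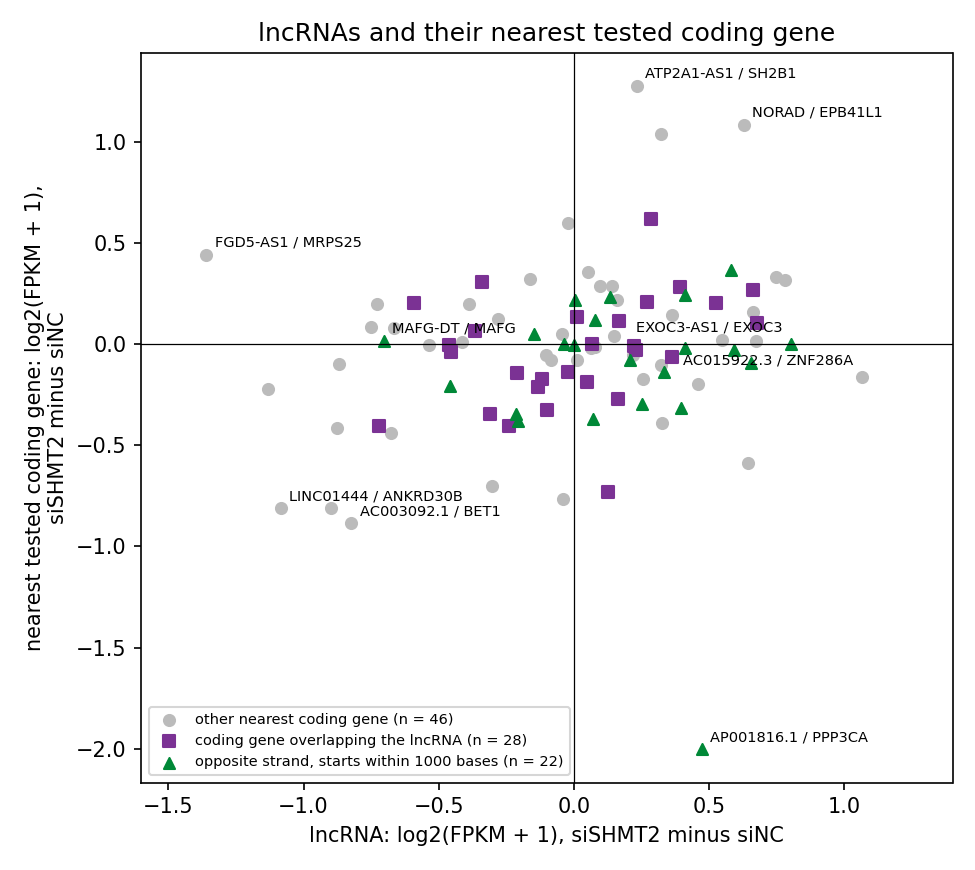
Difference in log2(FPKM + 1), siSHMT2 minus siNC, of each of the 96 lncRNAs (x axis) and of its nearest tested coding gene (y axis). Triangles are the 22 pairs on opposite strands with starts within 1000 bases, squares the 28 other coding genes that overlap their lncRNA and grey points the rest: EXOC3-AS1 and MAFG-DT lie near the horizontal line at 0, and the PPP3CA point lies at -2.00.

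The words GACTTTA and ACTTTAA were picked earlier from fold changes of protein-coding genes in these same libraries, so their presence in lncRNAs is a description. On the sense strand of any annotated transcript, at least 1 of them was found in 5 of the 13 lncRNAs that fell (38.5%), in none of the 13 that rose, and in 11 of the 68 others with a transcript (16.2%), against 87 of 580 other tested lncRNAs (15%). The words overlap, since GACTTTAA holds both. The 5 lncRNAs are those whose windows follow, 5′ to 3′ in exon sequence of GRCh38, with the words in capitals:
FGD5-AS1, chr3:14944434-14944461, minus strand: aattgtactaGACTTTAAatactaagca
AC060766.4, chr17:35404337-35404363, minus strand: attttcactaACTTTAAgactccagag
C6orf99, chr6:158918979-158919005, plus strand: cattttcactACTTTAAaaaaatttgt
AL161431.1, chr13:109273009-109273035, plus strand: attttccagaACTTTAAagctgaggct
AL161431.1, chr13:109273042-109273068, plus strand: taaccacagtGACTTTAtctatgtagt
LINC01116, chr2:176629814-176629840, minus strand: gcatagtgtaACTTTAAtgtgtgagca

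FGD5-AS1, AC060766.4 and C6orf99, which hold a word, were among the 6 largest falls, while LINC01444, AP005121.1 and AL021807.1 among those 6 hold none. The median longest transcript was 764 bases in the lncRNAs called lower, 911 in those called higher and 791.5 in those not called. With transcripts of at least 2000 bases only, a word was found in both lncRNAs that fell, in 0 of 3 that rose and in 9 of the 18 others. Among the other tested lncRNAs, 16 of 50 that fell (32.0%), 5 of 27 that rose (18.5%) and 66 of 503 without a call (13.1%) held a word. The number of lncRNAs called lower with a word was 3 to 7 over the alternatives, and the number called higher with a word was 0 to 3. It was 2 without siNC replicate 2.

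By name, 15 of the 54 lncRNAs with clone-style names were called (7 higher, 8 lower, median difference -0.03), and 3 of the 18 antisense genes named -AS (2 higher, 1 lower, median 0.22). These were shares of 27.8% and 16.7%, where 15.9% of all genes tested were called. Of the 10 LINC genes, LINC00857 and LINC01615 rose and LINC01444 and LINC01116 fell. The short genes had the wider spread. The 35 lncRNAs under 700 bases had a median of 58.8 reads and a median SD of log2(FPKM + 1) of 0.340 in siNC and 0.240 in siSHMT2. The 61 longer ones had a median of 296.5 reads and median SDs of 0.212 and 0.0901. Of the short genes 7 were called (20%), and of the longer ones 19 (31.1%). Across the 96 genes, which are not independent replicates and share the same libraries, length and within-group SD had a Spearman correlation of -0.58, and reads and SD one of -0.529. The siNC libraries spread more than the siSHMT2 libraries: siNC replicate 1 was the lowest of the 3 controls in 70 of 96 lncRNAs and siNC replicate 2 the highest in 52. The library total behind the FPKM was 17495471 in siNC replicate 1, with 15669139 recovered reads, and 14487813 in siNC replicate 2, with 15135070. Such totals scale every gene of a library, and their part in this pattern was not tested.

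**Figure D4:**
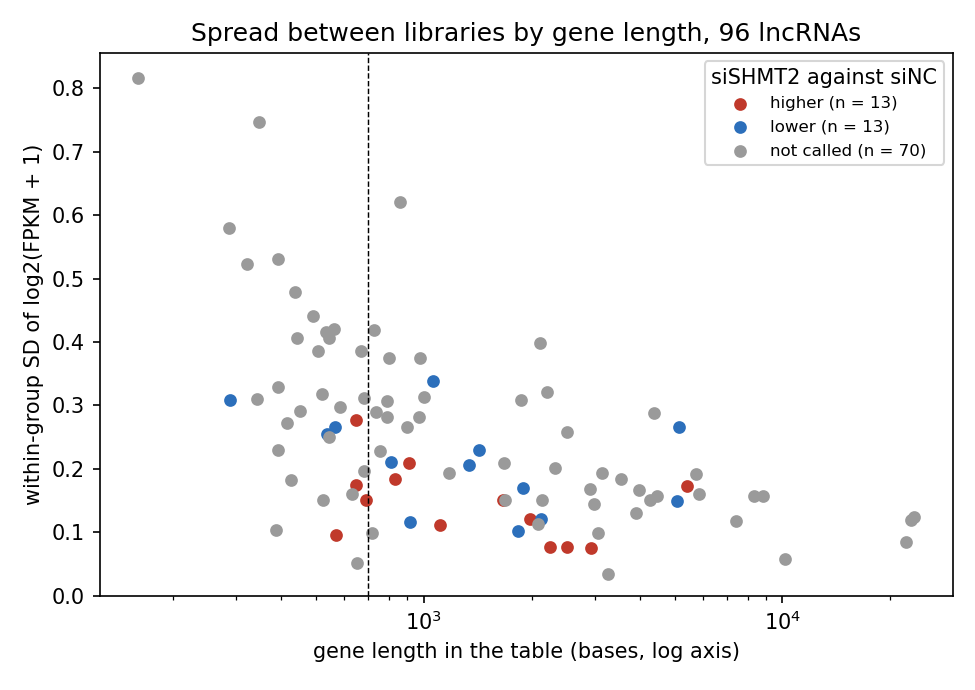
Within-group SD of log2(FPKM + 1) (y axis) against gene length in bases (x axis, log scale) for the 96 lncRNAs, coloured by call, with a dashed line at 700 bases. Most SDs above 0.4 belong to genes left of the line, and the called genes lie between 289 and 5401 bases.

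Reads of all lncRNA genes made up 0.875%, 0.848% and 0.864% of recovered reads in siNC and 0.906%, 0.928% and 0.899% in siSHMT2. All siSHMT2 libraries were higher, by 0.0489 percentage points on average (exact two-sided permutation p = 0.1, the smallest possible). Without the 2 most abundant of all lncRNA genes, ranked over the whole table and not within the 96, the difference was 0.0333 points. The 96 lncRNAs took 0.266% ± 0.00694 of reads in siNC and 0.301% ± 0.0112 in siSHMT2 (SD, n = 3). NORAD alone, which rose, held between 2875 and 6659 reads per library, and its part in this difference was not tested. Mitochondrial genes took 6.01%, 5.53% and 5.56% in siNC and 5.47%, 4.54% and 4.54% in siSHMT2, again without overlap, and the part of that share in the lncRNA shares was not tested.

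Genes that work with or on these RNAs were counted by list. Of 12 tested paraspeckle proteins, which assemble on NEAT1, none were called by limma and 4 had an unadjusted p under 0.05 (median -0.15), where 30.3% of all genes tested had one. Of 13 nuclear speckle proteins, the compartment of MALAT1, 3 splicing factors fell. SRSF6 went from 44.6, 38.3 and 34.2 FPKM to 24.4, 24.1 and 20.9 (-0.73, adjusted p = 0.00898), with separate groups, and SRSF3 (-0.48, adjusted p = 0.0326) and SRSF2 (-0.50, adjusted p = 0.0471) also fell. Of 17 genes listed as nuclear RNA exosome genes and adaptors, 1 fell: C1D, an exosome-associated protein, from 4.87, 4.88 and 5.43 FPKM to 0.923, 0.606 and 0.618 (-1.82, SE 0.114, adjusted p = 0.000157). The list was matched by symbol, and its uncalled entry MPP6 is not the gene of the exosome cofactor of that name. The C1D groups lay far apart, and the other 16 genes of that list were not called (list median -0.11).

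Of 13 nonsense-mediated decay genes, which act on many cytoplasmic transcripts, none were called by limma and 1 had an unadjusted p under 0.05. Of 6 Pumilio and NORAD partners, PUM2 alone was called. Of 14 genes that write, read or remove N6-methyladenosine, a common mark on lncRNAs, 2 were called. RBM15B, a writer adaptor, rose from 10.2 ± 0.315 to 17.7 ± 0.345 FPKM (SD, n = 3, difference 0.74, limma adjusted p = 0.00174). METTL14, a core writer subunit, fell from 2.45 ± 0.494 to 1.07 ± 0.145 FPKM (-0.73, adjusted p = 0.0103). Of 10 genes for the 3-prime processing of MALAT1, RPP30, a subunit of RNase P, fell (-0.50, adjusted p = 0.0326). Of 10 polycomb repressive complex 2 genes, JARID2, an accessory subunit, rose (0.35, adjusted p = 0.0481). Together 9 of the 94 tested partner genes were called (9.57%, against 15.9% of all genes tested), and 4 to 13 were called when 1 library was left out.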

How the data were processed

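RNA-seq was made from total RNA of LX2 cells, 3 siNC and 3 siSHMT2 libraries, grouped by title. The authors deposited 1 table of FPKM values with gene coordinates, lengths and biotypes. The submitters' processing notes name featureCounts 1.5.0-p3, HISAT2 2.0.5 and hg18 as the build, but 94 of the 96 lncRNAs were found in GENCODE release 29 (GRCh38), all 94 overlapping and 80.9% at identical ends, so coordinates are those of the table. Multiplying FPKM by length and dividing by each library's smallest step gave whole reads (100% of values, within 0.02). The totals behind the FPKM ran from 14487813 to 17495471 and did not equal the read sums. No source used here says how those totals were set.

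From these values log2(FPKM + 1) was tested with limma 3.58.1 in R 4.3.3 (variances moderated along an intensity trend) for genes with a mean of at least 1 FPKM, with Benjamini-Hochberg adjustment over all of them and a threshold of 0.05. Fits were tested on simulated data. The alternatives were a pseudocount of 0.1, a filter at 5 FPKM, no filter, TPM, FPKM from read sums, voom on recovered reads, no trend, array weights, a replicate block and leaving out each library. Words were searched in GENCODE transcripts, and the flanks shown are 10 bases (6 for NORAD). Genes named are SHMT2, every called lncRNA, the 10 most abundant, preset well-known ones, those next to the threshold, the called genes of each partner list and neighbours of named lncRNAs. Some genes that this rule names are not reported here, though the counts include them. The lncRNAs, lists and words were chosen with earlier results of these data known.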

Additional observations from a re-analysis of the deposited data

How the results depend on the processing

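The number of lncRNAs called changed with the filter and the weighting. Against 13 higher and 13 lower, no filter gave 7 and 7, array weights 20 and 21, and a member threshold of 10 FPKM 4 and 8 of 38 genes (31.6% called, against 27.1%). Over all genes tested the called share was 15.9%, and 17.2% for those with a mean of at least 5 FPKM. The share of all genes at 10 FPKM is not given here, so the 31.6% is a description only. Leaving out 1 library gave 6 to 14 higher and 6 to 17 lower. Over all genes (659 higher, 1070 lower), the higher and lower counts were 333 and 603 with no filter, 1827 and 1976 with array weights, and 229 to 729 and 498 to 1132 with 1 library left out. The lower count was 618 with a filter at 5 FPKM, where fewer genes are tested, and 620 with TPM. Clone-style names had 15 calls (7 with no filter, 6 to 17 with 1 library left out). Other names had 11 (7 with no filter, 20 with array weights, 6 to 14). Partner genes had 9 (3 with no filter, 26 with array weights, 4 to 13). The difference in the lncRNA share of reads was 0.0333 points without the 2 most abundant of all lncRNA genes in the table. The cause of these changes was not tested.

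Deviations of same-numbered libraries from their group means had correlations of -0.018, -0.349 and 0.243, without a common sign. With 3 libraries per group, these values cannot show whether the replicate numbers pair the libraries. With the replicate number as a block, 374 genes were higher and 696 lower, 10 lncRNAs were higher and 11 lower, 7 lncRNAs with other names and 5 partner genes were called. NORAD, LINC01615, AC003092.1, AL049840.5 and LINC01116 were among those not called with the block. Signs that changed were those of uncalled genes. TUG1 was at 0.049 with TPM, 0.031 with read sums, 0.036 with voom and 0.042 with array weights. AP001505.1 was at -0.24 with array weights. With 1 library left out, AC092718.4 ranged from -0.062 to 0.067, AP001505.1 from -0.13 to 0.40, AC135050.6 from -0.050 to 0.20 and MALAT1 from -0.035 to 0.17. AC008736.1 was not called with voom (adjusted p = 0.0616), and 11 of the 26 calls held in all 15 alternatives. Lncrnas that were members through their higher group alone, such as LINC00857 and C6orf99, were among these 11. The lncRNAs under 700 bases rest on a median of 58.8 reads, and the part of read number in their spread was not tested.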
